A study of Danio rerio with 30 samples.

Results

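The genes described here are grouped as genes of the phototransduction cascade and of the photoreceptor outer segment. They were chosen by gene symbol from a list of 56 genes named for their known role, with the opsins left out, and 54 of the 56 were found among the 27731 genes of the table, all of them protein-coding. The genes pde6ga and pde6gb, which encode inhibitory subunits of the rod phosphodiesterase, were not found under those names. By the cell type that is known to use them, 11 of the 54 were rod genes, 20 were cone genes and 23 were genes of both cell types or of the outer segment in general, called shared below. Of the 54 genes, 47 passed the filter on low values (5 or more of the 30 libraries with 10 or more normalised counts) and were tested: 9 rod, 16 cone and 22 shared genes. For 23 of these 47, the filter was reached only with the help of optic fissure libraries at 48 or 56 hpf. Such genes could hardly be tested without being higher there, so the counts and medians over the tested genes are descriptions and not support for a direction. The same limit holds for the regional calls of these 23 genes one by one. The rod genes among them were gngt1, pde6a, pde6b, cnga1 and grk1a. The cone genes were arr3b, gnat2, gnb3b, pde6c, slc24a2, guca1c, guca1g, gc3 and grk7a. The shared genes were guca1b, gucy2f, rcvrn3, rgs9a, pdcb, rom1a, rom1b, prph2a and rp1l1b. Many of the genes have a close paralog in zebrafish, and reads shared between such copies could be split between them, which the table cannot reveal.

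RNA was sequenced from regions dissected from the retina of zebrafish embryos. The optic fissure region (OF) is the ventral seam of the optic cup, and the dorsal retina (DR) is the control region. Both were taken at 32 hours post-fertilisation (hpf), before the fissure fuses, at 48 hpf, during fusion, and at 56 hpf, after it. Each of the 6 groups held 5 replicates, described as biological replicates. No strain, genotype, transgene or treatment was named for any group, and the number of embryos behind a library was not given in the sources used here. Because ventral retina outside the fissure was not among the groups, ventral position and the fissure itself cannot be told apart.

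In a photoreceptor, light turns an opsin into its active form, which switches on the G protein transducin, and transducin releases a phosphodiesterase from inhibition so that cyclic GMP is broken down and cyclic GMP-gated channels close. Opsin kinase and arrestin end the signal, while guanylate cyclases and their calcium-sensing activators restore cyclic GMP. Rods and cones carry out the same steps with separate genes for many of the proteins, and the whole cascade sits in an outer segment, a stack of membrane discs whose rims are shaped by the tetraspanins peripherin-2 and ROM1. In zebrafish the earliest photoreceptors form in a patch of ventral retina beside the optic fissure.

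Libraries held from 4.49 M to 12.32 M reads in genes. The library labels were checked against genes that mark the ventral and the dorsal eye. In 14 of 15 pairs of OF and DR libraries with the same number and time, the summed ventral genes (vax1, vax2, aldh1a3, pax2a and pax2b) stood at 1532 to 4259 normalised counts in OF and at 17.4 to 301 in DR. Replicate 5 at 48 hpf went against its labels: the ventral sum was 89.4 in the library labelled OF and 1937 in the library labelled DR, and the dorsal sum was 3294 and 903. Both libraries of replicate 1 at 32 hpf stood apart, with reads in 13854 (OF) and 11777 (DR) genes, as did the DR library of replicate 1 at 56 hpf, with reads in 25740. The OF and DR libraries of one number and time deviated together from their group means, so 3 fits are given below. The unblocked fit used all 30 libraries, a second fit blocked on all 15 pairs, and the paired fit blocked on the 13 pairs left without replicate 1 at 32 hpf and replicate 5 at 48 hpf. Leaving out replicate 5 at 48 hpf raises the OF values of the genes described here, since the library labelled OF replicate 5 held the lowest value of its group for 35 of the 47 tested genes, while its DR partner held the lowest for 2. Both libraries of this pair were low beside OF replicates 1 to 4 in the averages over the rod and the cone genes, given below.

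The cascade and outer segment genes were mostly at or near 0 at 32 hpf in both regions. By 48 hpf many had come up in OF and fewer in DR, and most stood higher in OF than in DR at 48 and 56 hpf. Taking a gene as present in a group when at least 4 of its 5 libraries reached 10 normalised counts, 5 of the 54 genes were present in OF at 32 hpf, 29 at 48 hpf and 43 at 56 hpf. In DR the numbers were 4, 13 and 18. The genes present in OF at 32 hpf were gnb1b, gngt2a, prom1a, tulp1a and unc119b, and in DR they were the same without tulp1a. No read was found in any library of the group for 9 of the 54 genes in OF and 16 in DR at 32 hpf. In OF, 8 rod, 8 cone and 13 shared genes were present at 48 hpf, against 1, 4 and 8 in DR. By 56 hpf the numbers were 9, 15 and 19 in OF and 3, 5 and 10 in DR. At 48 hpf 16 genes were present in OF but not in DR (7 rod, 4 cone and 5 shared), while 4.99% of all tested genes met the same description. At 56 hpf 25 genes met it (6 rod, 10 cone and 9 shared), against 5.16% of all tested genes. By this rule DR gained the rod arrestin genes saga and sagb, the cone arrestin gene arr3a, the phosducin gene pdca and the chaperone gene aipl1 between 48 and 56 hpf. At 48 hpf, however, sagb, pdca and aipl1 already reached 10 normalised counts in 3 DR libraries, arr3a in 2 and saga in 1. No gene described here was called as changed in DR between 48 and 56 hpf. In bulk tissue, fewer photoreceptors and less RNA per photoreceptor cannot be told apart.

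**Figure D1:**
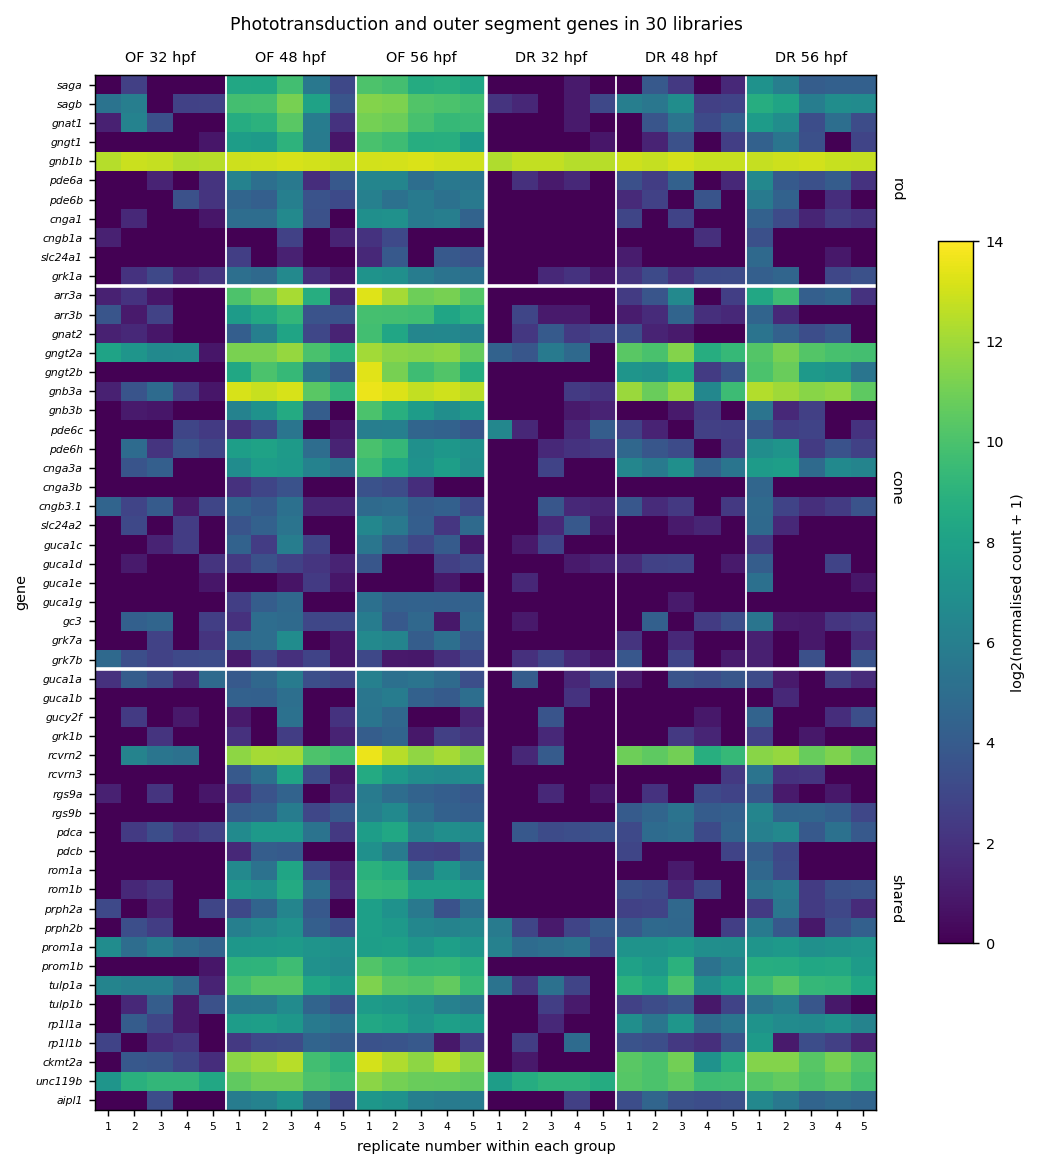
Heat map of log2(normalised count + 1) for the 54 genes (vertical axis, grouped by class) in each of the 30 libraries (horizontal axis, by region and time). Most genes were near 0 at 32 hpf, and OF libraries at 48 and 56 hpf tended to stand above DR libraries of the same time. The library labelled OF replicate 5 at 48 hpf was an exception.

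Arrestins bind the activated opsin and stop it from signalling. Both rod and both cone arrestin genes were higher in OF at 48 and 56 hpf once libraries were compared in pairs. The rod gene sagb stood at 888, 953, 2221, 272 and 11.97 normalised counts in OF replicates 1 to 5 at 48 hpf and at 62.5, 46.5, 114, 5.32 and 6.13 in DR. At 56 hpf its values were 2728, 2381, 1187, 1062 and 879 in OF and 423, 291, 59.1, 117 and 107 in DR. At 48 hpf the library labelled OF replicate 5 was among the DR libraries, while the 5 OF libraries at 56 hpf lay above all DR libraries. The difference at 48 hpf was not called without a block (log2 difference 3.74 with SE 1.09, adjusted p = 0.528) and was called with 15 pairs (log2 difference 3.74 with SE 0.62, adjusted p = 0.0321) and in the paired fit (log2 difference 4.46 with SE 0.53, adjusted p = 7.8e-05). The other rod arrestin gene, saga, stood at 331, 324, 879, 47.98 and 7.18 in OF and 0, 14.2, 4.02, 0 and 2.04 in DR at 48 hpf. By 56 hpf it stood at 1073, 913, 394, 441 and 307 in OF and 139, 62.4, 16.8, 18.3 and 18.7 in DR. The mean in DR was 1.27% of that in OF at 48 hpf and 8.15% at 56 hpf, or 4.64% without DR replicate 1, the library at 56 hpf that stood apart. At 48 hpf saga was the only gene of the table called without a block, and its adjusted p ranged from 0.0504 to 0.339 over the 20 single libraries whose omission ended the call. The call was also lost with only the groups compared (adjusted p = 0.645), with a pseudocount of 0.5 (0.0673), without a filter (0.0682) and with a filter on the mean (0.0575). At 56 hpf the difference of saga was not called without a block (log2 difference 3.95 with SE 0.93, adjusted p = 0.0694) and was called with 15 pairs (log2 difference 3.95 with SE 0.74, adjusted p = 0.00982).

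The cone arrestin gene arr3a, which in zebrafish is known from red and green cones, had values of 1081, 1915, 4540.0, 429 and 1.60 in OF and 4.38, 11.8, 93.5, 0 and 5.11 in DR at 48 hpf. By 56 hpf they were 10049, 4373, 1889.7, 2264 and 1209 in OF and 336, 777, 17.6, 22.6 and 3.12 in DR. Only the library labelled OF replicate 5 at 48 hpf fell among the DR libraries, and no value overlapped at 56 hpf. Without a block neither time was called (log2 difference 5.59 with SE 1.42, adjusted p = 0.245 at 48 hpf; log2 difference 5.77 with SE 1.42, adjusted p = 0.0918 at 56 hpf). In the paired fit the difference was 5.77, SE 0.60 at 56 hpf (adjusted p = 1.5e-05), and with 15 pairs it was called at both times (adjusted p = 0.0388 and 0.00771). Its counterpart arr3b, known from blue and ultraviolet cones, stood at 201, 344, 616, 11.1 and 10.4 in OF and at 1.1, 2.36, 22.1, 2.66 and 2.04 in DR at 48 hpf. At 56 hpf it reached 942, 915, 821, 303 and 451 in OF against 22.2, 2.05, 0, 0 and 0 in DR. In 3 of the 5 DR libraries arr3b had no read at 56 hpf, and the DR mean was 0.706% of the OF mean (0.075% without DR replicate 1). All 3 fits called the difference at 56 hpf (unblocked: log2 difference 8.07 with SE 1.04, adjusted p = 2.5e-04). At 48 hpf OF replicate 4 and the library labelled OF replicate 5 lay within the DR range, and the difference was called with 15 pairs (log2 difference 4.33 with SE 0.85, adjusted p = 0.0461) but not without a block (log2 difference 4.33 with SE 1.04, adjusted p = 0.157).

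**Figure D2:**
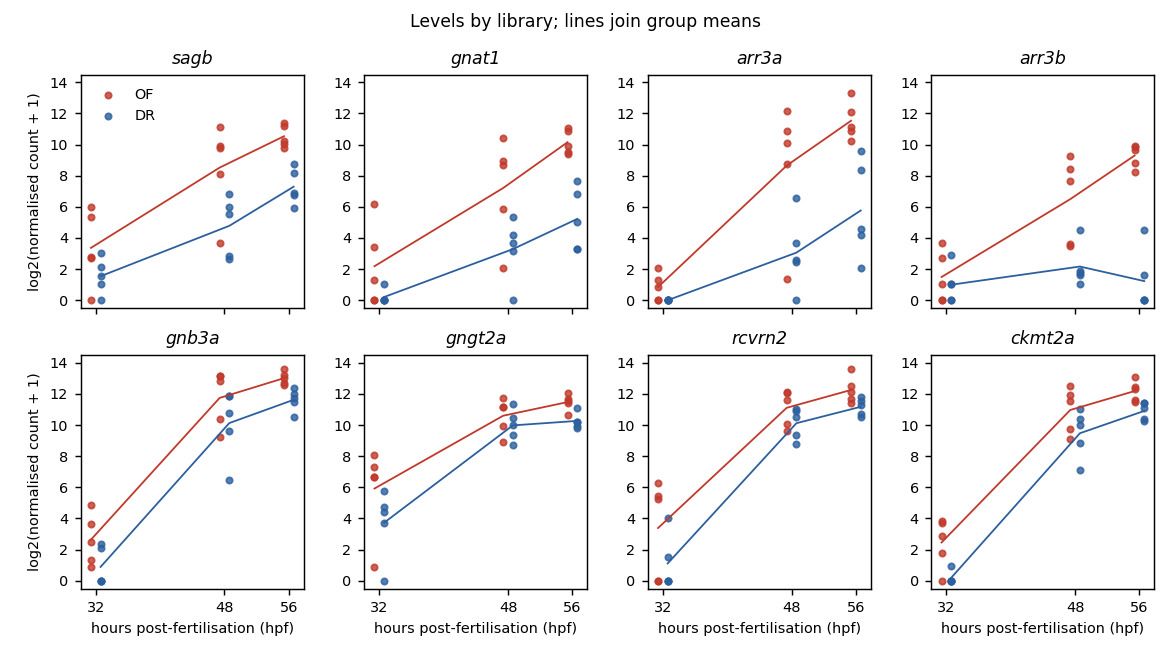
Normalised counts + 1 on a log axis against time in hpf for 8 genes, with 1 point per library, OF and DR in separate colours and lines through the group means of the log values. The arrestin genes sagb, arr3a and arr3b, the transducin genes gnat1 and gnb3a, and ckmt2a separated the regions at 56 hpf. The genes gnb3a, gngt2a, rcvrn2, ckmt2a and sagb were called as rising in both regions between 32 and 48 hpf. The call of sagb in DR was lost with quantile scaling.

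Transducin has an alpha subunit that carries GTP and a paired beta and gamma subunit. Of the rod subunits, the alpha gene gnat1 and the gamma gene gngt1 were higher in OF at 56 hpf in both blocked fits, whereas for the beta gene gnb1b, which many other cells use, the DR mean was 93.0% of the OF mean at 48 hpf and 86.3% at 56 hpf. Values of gnat1 were 409, 501, 1391, 58.3 and 3.19 in OF and 0, 11.8, 40.2, 7.98 and 17.4 in DR at 48 hpf, and the DR mean was 3.28% of the OF mean at 48 hpf and 5.70% at 56 hpf (3.19% without DR replicate 1). The library labelled OF replicate 5 at 48 hpf had the lowest value of its group, below 4 of the 5 DR libraries, and at 56 hpf the groups did not overlap. The difference at 56 hpf was not called without a block (log2 difference 4.93 with SE 1.24, adjusted p = 0.107) and was called with 15 pairs (log2 difference 4.93 with SE 1.13, adjusted p = 0.0288). At 48 hpf gnat1 was called in the paired fit (adjusted p = 0.00306) but not with 15 pairs (adjusted p = 0.159). For gngt1 the values were 223, 194, 528, 56.5 and 0.80 in OF and 0, 1.58, 10.1, 0 and 5.11 in DR at 48 hpf. Its values at 56 hpf were 1018, 816, 414, 439.6 and 216 in OF and 19.4, 41.96, 9.70, 0 and 6.24 in DR. At 48 hpf the library labelled OF replicate 5 held 1 read of gngt1, and the other 4 OF libraries lay above all DR libraries, as all 5 did at 56 hpf. By 56 hpf the difference was called in all 3 fits (unblocked: log2 difference 5.77 with SE 1.05, adjusted p = 0.00556), that at 48 hpf with 15 pairs (log2 difference 4.74 with SE 0.95, adjusted p = 0.0461) and not without a block (adjusted p = 0.113). In contrast, gnb1b at 32 hpf had means (SD, n = 5) of 6258 ± 1005 in OF against 5964 ± 680.4 in DR, and stood at 8653 ± 475 and 7465 ± 547 at 56 hpf. Its regional difference was not called at 48 hpf (log2 difference 0.11 with SE 0.12, adjusted p = 1) or at 56 hpf (log2 difference 0.21 with SE 0.12, adjusted p = 0.959), nor with either block.

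The 5 cone transducin genes fell into 2 patterns. The alpha gene gnat2 and the beta gene gnb3b had few counts in DR, whereas the beta gene gnb3a and the gamma genes gngt2a and gngt2b were present in both regions at 48 and 56 hpf, gngt2a at 32 hpf too. Values of gnb3b were 71.5, 138, 377, 16.3 and 0 in OF and 0, 0, 1.01, 4.43 and 0 in DR at 48 hpf. At 56 hpf they were 1044, 461, 215, 119.7 and 195 in OF and 41.6, 2.05, 5.29, 0 and 0 in DR. DR libraries of gnb3b held at most 5.29 at 56 hpf apart from replicate 1, and all lay below the OF libraries. The difference was called at 56 hpf in all 3 fits (unblocked: log2 difference 6.30 with SE 1.09, adjusted p = 0.00372; not called by edgeR or DESeq2, adjusted p = 0.0571 and 0.0654) and at 48 hpf with 15 pairs (log2 difference 4.51 with SE 0.90, adjusted p = 0.0461) but not without a block (adjusted p = 0.157). Values of gnb3a, by comparison, were 8984, 7259, 9085, 1344 and 598 in OF and 3806, 1787, 3722, 89.6 and 772 in DR at 48 hpf. By 56 hpf they were 12276, 9676, 6684, 8207 and 5984 in OF and 5318, 4174, 2876, 3371 and 1456 in DR. At 48 hpf OF replicate 4 and the library labelled OF replicate 5 lay within the DR range, and at 56 hpf all OF libraries were above all DR libraries, yet no fit called the difference (unblocked: log2 difference 1.61 with SE 0.85, adjusted p = 1 and log2 difference 1.39 with SE 0.85, adjusted p = 1; paired: adjusted p = 0.0721 and 0.2). The DR mean was 37.3% and 40.1% of the OF mean for gnb3a, against 0.902% and 2.41% for gnb3b (0.451% at 56 hpf without DR replicate 1). For gngt2a it was 64.1% and 43.7%, for gngt2b 28.1% and 20.7%, and for gnat2 2.95% and 5.77% (3.69% without DR replicate 1). With 15 pairs gnat2 and gngt2b were called at 56 hpf (adjusted p = 0.0146 and 0.00896), and in the paired fit both were called at 48 hpf too (adjusted p = 0.0087 and 0.0129). At 32 hpf gngt2a was the one cone transducin gene present, with 275, 159, 98.9, 101 and 0.83 in OF and 19.99, 12.4, 53.3, 26.1 and 0 in DR. OF was above DR in 5 of 5 pairs there, and the difference was called with 15 pairs (log2 difference 2.20 with SE 0.36, adjusted p = 0.00273) but not without a block (log2 difference 2.20 with SE 0.94, adjusted p = 0.441). At 32 hpf gnat2 stood at 1.48, 2.09, 0.81, 0 and 0 in OF and at 0, 3.80, 14.3, 4.18 and 6.41 in DR, so that OF was above DR in 1 of 5 pairs.

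The phosphodiesterase of rods is built from PDE6A, PDE6B and inhibitory gamma subunits, that of cones from PDE6C with the gamma subunit PDE6H. Among these, pde6h was called in OF over DR at 56 hpf with both blocks, pde6b in the paired fit alone, and pde6a and pde6c in no fit. Values of pde6h were 229.8, 267, 198, 30.9 and 1.60 in OF and 24.1, 12.6, 8.05, 0 and 4.09 in DR at 48 hpf. Its values at 56 hpf were 1015, 648, 127, 168 and 132 in OF and 117, 148, 4.41, 10.4 and 5.46 in DR. The library labelled OF replicate 5 at 48 hpf and OF replicates 3 and 5 at 56 hpf lay within the DR range. The difference at 56 hpf was not called without a block (log2 difference 3.61 with SE 1.17, adjusted p = 0.383) and was called with 15 pairs (log2 difference 3.61 with SE 0.77, adjusted p = 0.0195), and at 48 hpf it was called in the paired fit (log2 difference 4.24 with SE 0.61, adjusted p = 6.1e-04). The rod catalytic gene pde6a stood at 73.5, 33.5, 49.2, 2.57 and 13.6 in OF and 9.86, 4.73, 19.1, 0 and 2.04 in DR at 48 hpf, and at 80.3, 81.7, 32.9, 47.4 and 43.1 and 91.6, 14.3, 9.70, 15.7 and 3.12 at 56 hpf. As labelled, OF was above DR in 5 of 5 pairs at 48 hpf, replicate 5 included, but at 56 hpf DR replicate 1 was above every OF library. No fit called pde6a (unblocked: log2 difference 2.16 with SE 0.84, adjusted p = 1 and log2 difference 1.77 with SE 0.84, adjusted p = 0.818). The second rod catalytic gene, pde6b, had means at 56 hpf of 48.6 ± 13.1 in OF against 14.9 ± 22.1 in DR and was called at 56 hpf in the paired fit alone (adjusted p = 0.0463, and 0.0711 with 15 pairs). Its DR mean at 56 hpf was 30.6% of the OF mean, or 11.9% without DR replicate 1. The cone catalytic gene pde6c had means of 36.5 ± 24.99 and 5.38 ± 4.62, and no fit called it. The table also held a gene named pde6g, outside the list and looked at after its values were seen, with means in OF and DR of 629 and 156 at 32 hpf, 4809 and 3613 at 48 hpf, and 5119 and 3204 at 56 hpf.

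Cyclic GMP-gated channels open to sodium and calcium in the dark, and exchangers of the SLC24A family carry the calcium out again. Of the rod genes, cnga1, which encodes the alpha subunit, was measurable, and cngb1a and slc24a1 missed the filter. Values of cnga1 were 30.6, 31.7, 94.2, 10.3 and 0 in OF and 6.58, 0, 6.03, 0 and 0 in DR at 48 hpf. At 56 hpf they were 123, 136, 54.6, 63.4 and 20.7 in OF and 19.4, 8.19, 1.76, 4.35 and 3.12 in DR. At 48 hpf the library labelled OF replicate 5 held no read, and at 56 hpf the lowest OF library stood just above the highest DR library. At 56 hpf the difference was not called without a block (log2 difference 3.36 with SE 0.87, adjusted p = 0.124) and was called with 15 pairs (log2 difference 3.36 with SE 0.60, adjusted p = 0.00845). The cone alpha subunit gene cnga3a stood at 109, 215, 183, 71.98 and 37.5 in OF and 86.6, 52.8, 126, 19.5 and 41.9 in DR at 48 hpf. By 56 hpf it stood at 732, 334, 142, 229.7 and 120.1 and 201, 230.3, 27.3, 97.5 and 79.5. The regions overlapped at both times, in 3 OF libraries each, and no fit called the difference (unblocked: log2 difference 0.91 with SE 0.82, adjusted p = 1 and log2 difference 1.31 with SE 0.82, adjusted p = 1). The DR mean was 52.9% of the OF mean for cnga3a at 48 hpf and 7.56% for cnga1. The cone beta subunit gene cngb3.1 had a mean of at most 20.3 in any group. The cone exchanger gene slc24a2 had means of 37.8 ± 33.7 in OF and 5.68 ± 11.6 in DR at 56 hpf and was called there with both blocks (15 pairs: log2 difference 3.41 with SE 0.85, adjusted p = 0.0433) but not without one (adjusted p = 0.348). The DR mean of slc24a2 was 15.02% of the OF mean, or 1.35% without DR replicate 1. The genes cngb1a, slc24a1 and cnga3b did not exceed 14.3 in any library other than DR replicate 1 at 56 hpf, where they stood at 9.71, 26.4 and 23.6.

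Guanylate cyclases make cyclic GMP, and guanylate cyclase-activating proteins, encoded by the guca1 genes, switch them on when calcium falls. The genes guca1a, guca1b, guca1c and guca1g were higher in OF at 56 hpf in the blocked fits, and the cyclase genes gc3 and gucy2f were called in no regional comparison. Values of guca1a were 14.3, 24.2, 56.2, 9.43 and 6.39 in OF and 1.1, 0, 11.1, 8.87 and 12.3 in DR at 48 hpf. By 56 hpf they were 67.8, 35.1, 41.6, 27.7 and 9.11 in OF and 8.32, 1.02, 0, 5.22 and 2.34 in DR. OF replicate 4 and the library labelled OF replicate 5 overlapped with DR at 48 hpf, and the regions did not overlap at 56 hpf, where the difference was called with 15 pairs (log2 difference 3.25 with SE 0.74, adjusted p = 0.0287) but not without a block (adjusted p = 0.173). For guca1b the values were 19.4, 18.6, 33.7, 0 and 0 in OF at 48 hpf, with no read in any DR library. Its values at 56 hpf were 44.9, 57.9, 19.1, 15.2 and 32.3 in OF and 0, 2.05, 0, 0 and 0 in DR. A single DR library held reads of guca1b at 56 hpf, and the difference there was called in all 3 limma fits (unblocked: log2 difference 4.64 with SE 0.77, adjusted p = 0.00268) but not by edgeR (adjusted p = 0.182) or DESeq2 (adjusted p = 0.0756). For guca1g the values were 5.11, 16.8, 26.00, 0 and 0 in OF at 48 hpf and 35.5, 18.99, 19.9, 19.7 and 19.9 at 56 hpf. In DR 1 of the 10 libraries at these times held reads of guca1g, with 1.01 in replicate 3 at 48 hpf. With DR at a floor of 3 reads per library, the OF mean of guca1g was at least 7.7-fold higher at 56 hpf. At 48 hpf the OF mean was at least 5.0-fold higher for guca1b and at least 6.3-fold higher for guca1c. These bounds cover counting error only and not the spread between libraries. OF values of guca1c at 48 hpf ran from 0 to 59.7, and guca1b had no read in OF replicate 4 or the library labelled OF replicate 5. At 48 hpf the paired fit called guca1b and guca1c. Neither was called with 15 pairs or without a block (unblocked: adjusted p = 0.408 and 0.435). The difference of guca1g at 56 hpf was called in all 3 limma fits (unblocked: adjusted p = 3.6e-04) but not by edgeR (adjusted p = 0.102) or DESeq2 (adjusted p = 0.0533), that of guca1c with 15 pairs (adjusted p = 0.039). The genes guca1b, guca1c and guca1g reached 10 normalised counts only in OF libraries at 48 and 56 hpf. They passed the filter through these libraries alone, so their calls are descriptions. The cone cyclase gene gc3 stood at 3.06, 30.8, 27.4, 6.85 and 7.18 in OF and 0, 18.9, 0, 4.43 and 9.20 in DR at 48 hpf, and at 57.4, 14.2, 25.1, 0.89 and 26.5 and 43.01, 1.02, 0.88, 3.48 and 4.68 at 56 hpf. The regions overlapped at both times (unblocked: log2 difference 1.55 with SE 1.04, adjusted p = 1 and log2 difference 1.63 with SE 1.04, adjusted p = 1). The cyclase gene gucy2f had reads in 3 OF libraries and 1 DR library at 48 hpf, with a mean of 8.01 in OF. The genes guca1d and guca1e missed the filter, with a highest value of 16.6 and 34.7, both in DR replicate 1 at 56 hpf.

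Several proteins end the signal or adjust it: opsin kinases mark the opsin for arrestin, recoverins hold the kinase back while calcium is high, RGS9 speeds up GTP hydrolysis by transducin, and phosducin binds its beta-gamma subunit. The rod kinase gene grk1a stood at 33.7, 27.03, 96.98, 2.57 and 0.80 in OF and 3.29, 7.88, 3.02, 7.98 and 8.18 in DR at 48 hpf. At 56 hpf it stood at 143, 124, 58.9, 39.3 and 35.6 in OF and 18.04, 22.5, 0, 6.96 and 10.1 in DR. At 48 hpf OF replicate 4 and the library labelled OF replicate 5 lay below all DR libraries, so that OF was above DR in 3 of 5 pairs. The regions were separate at 56 hpf, where the paired fit called the difference (log2 difference 3.06 with SE 0.73, adjusted p = 0.0192) and the other fits did not (adjusted p = 0.0653 with 15 pairs and 0.26 unblocked). The cone kinase gene grk7a stood at 23.5, 31.7, 112, 0 and 0.80 in OF and 3.29, 0, 2.01, 0 and 0 in DR at 48 hpf. By 56 hpf it stood at 95.99, 78.8, 16.5, 33.1 and 14.1 in OF and 1.39, 0, 0.88, 0 and 2.34 in DR, so that all OF libraries were above all DR libraries and the DR mean was 1.93% of the OF mean. The difference at 56 hpf was called in all 3 fits (unblocked: log2 difference 4.43 with SE 0.93, adjusted p = 0.0253), but not by edgeR (adjusted p = 0.205). Without a block this call was lost on leaving out OF replicate 1 (adjusted p = 0.108), 2 (0.111) or 4 (0.0635) or DR replicate 2 (0.0652), 3 (0.0614) or 4 (0.0927). The kinase genes grk1b and grk7b missed the filter, with highest values of 21.8 in OF at 56 hpf and 26.6 in OF at 32 hpf.

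The recoverin genes rcvrn2 and rcvrn3 behaved unlike each other. Values of rcvrn2 were 3188, 4490.2, 4299, 1087 and 794 in OF and 1947, 1495, 2053, 432 and 661 in DR at 48 hpf. At 56 hpf they were 12297, 5796, 3302, 4425 and 2706 in OF and 2965, 3540.1, 1711, 2515 and 1466 in DR. As labelled, OF was above DR in 5 of 5 pairs at both times, at 48 hpf with replicate 5 included, but the groups overlapped and no fit called a difference at 48 or 56 hpf (unblocked: log2 difference 0.99 with SE 0.94, adjusted p = 1 and log2 difference 1.08 with SE 0.94, adjusted p = 1). At 32 hpf rcvrn2 stood at 0, 75.3, 42.2, 36.9 and 0 in OF and 0, 1.90, 15.4, 0 and 0 in DR, and the difference was called with 15 pairs (log2 difference 2.27 with SE 0.57, adjusted p = 0.039) but not without a block (adjusted p = 0.413). For rcvrn3, which had no read at 32 hpf, the values were 14.3, 35.4, 299, 8.57 and 0.80 in OF and 0, 0, 0, 0 and 4.09 in DR at 48 hpf. By 56 hpf they were 379, 184, 114, 105 and 117 in OF and 41.6, 3.07, 3.53, 0 and 0 in DR. At 48 hpf the one DR library with reads, the library labelled DR replicate 5, belonged to the pair that went against its labels, and its 4.09 was below OF replicates 1 to 4. At 56 hpf the regions did not overlap. All 3 limma fits called it at 56 hpf (unblocked: log2 difference 5.39 with SE 0.94, adjusted p = 0.00377), but edgeR (adjusted p = 0.485) and DESeq2 (adjusted p = 0.563) did not. The DR mean at 56 hpf was 42.8% of the OF mean for rcvrn2 and 5.37% for rcvrn3 (0.918% without DR replicate 1). Of the RGS9 genes, rgs9a had means of 27.5 ± 16.9 in OF and 2.88 ± 5.39 in DR at 56 hpf and was called with 15 pairs (log2 difference 3.52 with SE 0.78, adjusted p = 0.0238), with DR at 10.4% of the OF mean and 1.72% without DR replicate 1, whereas rgs9b had means of 22.3 ± 19.8 in OF and 22.4 ± 9.88 in DR at 48 hpf and was called in no regional comparison. The phosducin gene pdca had means of 105 ± 85.3 and 19.9 ± 11.9 at 48 hpf and was called in the paired fit at 48 and 56 hpf (2.73, SE 0.38 and 2.07, SE 0.34) but not with 15 pairs. Its paralog pdcb had means of 41.8 ± 52.7 and 4.76 ± 7.33 at 56 hpf and was called there with 15 pairs (adjusted p = 0.0498), with DR at 11.4% of the OF mean and 4.28% without DR replicate 1.

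Among the outer segment genes, the disc rim genes rom1a and rom1b had DR means of 0.228% and 3.71% of the OF mean at 48 hpf, and prph2a and prph2b of 29.7% and 22.3%. Values of rom1a were 93.98, 37.3, 302, 7.71 and 1.60 in OF at 48 hpf, and a single DR library held reads, with 1.01 in replicate 3. At 56 hpf rom1a stood at 487, 379, 45.9, 147 and 53.9 in OF and 24.97, 8.19, 0, 0 and 0 in DR. Of the 47 tested genes rom1a was the one whose 5 OF libraries all lay above all DR libraries at 48 hpf. That separation counts replicate 5 as labelled, with 1.60 in the library labelled OF and 0 in the library labelled DR, and by the ventral and dorsal genes this pair ran the other way. The difference was called at 56 hpf in all 3 limma fits (unblocked: log2 difference 5.63 with SE 0.97, adjusted p = 0.00372; not called by edgeR or DESeq2, adjusted p = 0.182 and 0.327) and at 48 hpf with 15 pairs (log2 difference 4.71 with SE 0.68, adjusted p = 0.0156) but not without a block (adjusted p = 0.106). Values of rom1b were 167, 136, 382, 36.9 and 2.39 in OF and 9.86, 7.88, 2.01, 7.09 and 0 in DR at 48 hpf. Its values at 56 hpf were 619.7, 580.1, 250.4, 245 and 213 in OF and 41.6, 60.4, 4.41, 9.57 and 10.9 in DR. The library labelled OF replicate 5 at 48 hpf lay within the DR range, and the regions were separate at 56 hpf, where all 3 fits called the difference (unblocked: log2 difference 4.27 with SE 0.90, adjusted p = 0.027) and edgeR did not (adjusted p = 0.102). Without a block the call of rom1b was lost with a pseudocount of 0.5 (0.0767), with a filter on the mean (0.0504), and on leaving out any of OF replicates 1 to 4 (adjusted p from 0.0538 to 0.111) or DR replicate 3 (0.135), 4 (0.0973) or 5 (0.111). The DR mean was 13.5% of the OF mean for prph2a and 13.9% for prph2b at 56 hpf (15.7% and 7.87% without DR replicate 1), and both were called there with 15 pairs (adjusted p = 0.0433 and 0.0485).

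Of the other genes grouped here with the outer segment, not all of which encode proteins located there, ckmt2a, prom1a, prom1b, tulp1a, rp1l1a and unc119b were present in both regions at 48 hpf. By the same rule tulp1b and aipl1 were present in OF alone and rp1l1b in neither. The mitochondrial creatine kinase gene ckmt2a, whose enzyme buffers energy in cells of high demand, stood at 0, 13.6, 12.2, 6.46 and 2.50 in OF and 0, 0.95, 0, 0 and 0 in DR at 32 hpf. At 48 hpf it stood at 3036, 3968, 5756, 861 and 544 in OF and 1371, 1029.8, 2059, 137 and 456 in DR, and at 56 hpf at 8866, 5073, 3124, 5533 and 2839.8 and 2708, 2692, 1327, 2236 and 1220.2. As labelled, OF was above DR in 5 of 5 pairs at both later times, at 48 hpf with replicate 5 included, and the values did not overlap at 56 hpf. No difference was called without a block (log2 difference 1.49 with SE 0.67, adjusted p = 1 and log2 difference 1.28 with SE 0.67, adjusted p = 0.926), whereas the paired fit called ckmt2a at 32, 48 and 56 hpf (2.83, SE 0.25; 1.80, SE 0.25; 1.28, SE 0.22) and the fit with 15 pairs at 32 hpf alone (adjusted p = 0.00315). Creatine kinases are also muscle proteins, and sums of muscle genes are given further on. The part of muscle in the ckmt2a values at 56 hpf was not tested. For the prominin gene prom1a, which acts where new discs form, means were 165 ± 26.6 in OF and 141 ± 24.01 in DR at 48 hpf, and no fit called it at any time. Its paralog prom1b had means of 422 ± 297 and 206 ± 179 and was called in the paired fit at 48 hpf (1.28, SE 0.28) and 56 hpf (1.07, SE 0.25) alone. The gene tulp1a, which takes part in transport to the outer segment, had means of 47.4 ± 32.5 in OF and 17.2 ± 19.1 in DR at 32 hpf, and OF was above DR in 5 of 5 pairs (15 pairs: log2 difference 1.78 with SE 0.36, adjusted p = 0.011). The paralog tulp1b had means of 126 ± 66.1 and 23.8 ± 28.4 at 56 hpf and was called there with 15 pairs (adjusted p = 0.00896). For unc119b, a carrier of lipid-modified transducin, means were 2034 ± 604 and 1270.2 ± 252 at 56 hpf (15 pairs: log2 difference 0.66 with SE 0.15, adjusted p = 0.0333). The chaperone gene aipl1, needed for phosphodiesterase assembly, and the axonemal gene rp1l1a had DR means of 43.2% and 46.8% of the OF mean at 56 hpf and were called in no regional comparison. The paralog rp1l1b stood at 197 in DR replicate 1 at 56 hpf and at no more than 29.2 in any other library.

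Rod genes had a larger median regional difference than cone genes at 48 hpf, and the medians were nearly equal at 56 hpf. Without a block, the median log2 difference of OF over DR was 2.87 for 9 rod genes, 2.14 for 16 cone genes and 1.48 for 22 shared genes at 48 hpf, against 0.10 for all genes. The medians at 56 hpf were 3.24, 3.21 and 1.67, against 0.08 for all genes, and 2.98 for cone genes when guca1g, without a read in DR, was set to its bound. In the paired fit the medians at 48 hpf were 3.59, 2.67 and 1.75, against 0.13 for all genes. These are descriptions, since the genes of a class are not replicates. Step by step, the genes of a class did not move as one. For the transducin gamma subunit, DR held 1.67% of the OF mean of the rod gene gngt1 at 48 hpf but 64.1% and 28.1% of the cone genes gngt2a and gngt2b. For the alpha subunit the share was 3.28% for rod gnat1 and 2.95% for cone gnat2. For the beta subunit the order was the other way, with 93.0% for gnb1b of the rod set and 37.3% and 0.902% for cone gnb3a and gnb3b. For arrestins the shares were 1.27% (saga) and 5.39% (sagb) in the rod set and 1.44% (arr3a) and 2.56% (arr3b) in the cone set. For the channel they were 7.56% for cnga1 and 52.9% for cnga3a. For the opsin kinase at 56 hpf the share was 14.4% for rod grk1a and 1.93% for cone grk7a.

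Averaged over the genes of a class as log2(normalised count + 1), the rod mean in OF replicates 1 to 5 was 7.61, 7.44, 8.71, 5.47 and 3.37 at 48 hpf, and in DR it was 3.23, 3.96, 4.47, 2.83 and 3.21. The cone mean was 6.20, 6.90, 7.87, 3.97 and 2.57 in OF and 3.51, 3.23, 3.78, 2.06 and 2.68 in DR. In OF both means were highest in replicate 3 and lowest in the library labelled replicate 5, whose cone mean was below that of its DR partner. That partner was low too, with means of 3.21 (rod) and 2.68 (cone), below those of OF replicates 1 to 4. Under either labelling, this pair held no library at the level of OF replicates 1 to 4. At 56 hpf the rod mean was 9.13, 8.92, 8.14, 8.02 and 7.68 in OF and 6.83, 6.16, 3.85, 4.48 and 4.17 in DR, and the cone mean was 8.88, 8.01, 6.98, 6.76 and 6.53 and 5.83, 4.64, 3.32, 3.26 and 2.92. Every OF library at 56 hpf was above every DR library in both means. DR replicates 1 and 2 were the highest DR libraries and came from the pairs whose OF libraries were also the highest.

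**Figure D3:**
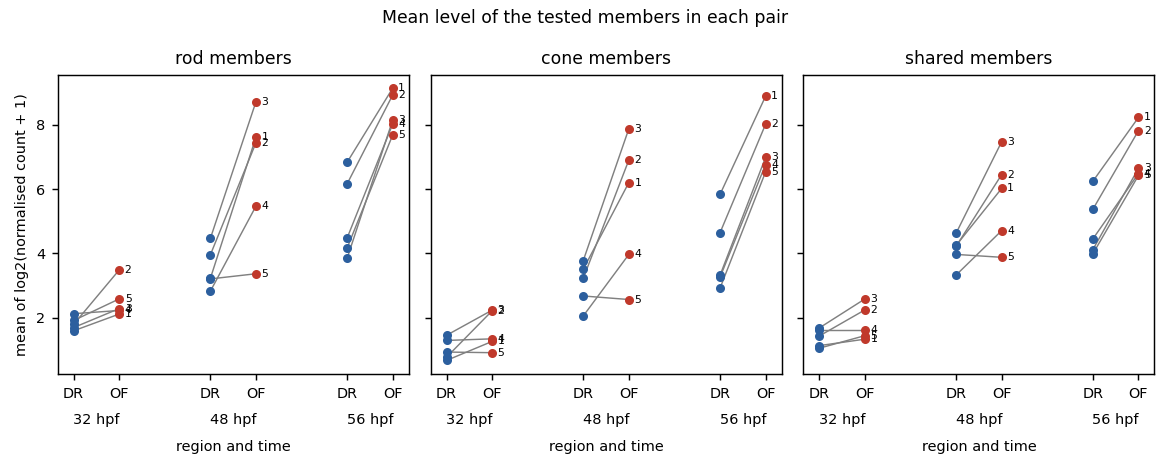
Mean log2(normalised count + 1) of the rod, cone and shared genes in each library, with a line joining the OF and DR libraries of one replicate number at 32, 48 and 56 hpf. The lines fell from OF to DR in every pair at 56 hpf, and at 48 hpf replicate 5 was the pair without a drop in the cone and shared means (2.57 and 2.68 for cone genes, 3.88 and 3.97 for shared genes).

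Between 32 and 48 hpf most of the genes rose in OF, and fewer were called in DR. In OF, 36 of 47 genes rose (8 rod, 12 cone and 16 shared) and none fell, with a background of 25.6% of all genes called higher. In DR, 15 rose (2 rod, 4 cone and 9 shared) and none fell, with a background of 22.1%. The 2 of 9 rod genes and 4 of 16 cone genes called in DR were near this background share. The shared genes, with 9 of 22, were above it. The genes that rose in DR were the rod-class genes sagb and gnb1b, the cone genes gnb3a, gngt2a, gngt2b and cnga3a, and the shared genes ckmt2a, prom1a, prom1b, rcvrn2, rp1l1a, rgs9b, tulp1a, unc119b and aipl1. The beta subunit gene gnb3a rose by 9.11 with SE 0.85 in OF (adjusted p = 3.3e-09) and by 9.24 with SE 0.85 in DR (adjusted p = 1.9e-09) on the log2 scale. Similarly, ckmt2a rose by 8.51 in OF (adjusted p = 1.3e-10) and 9.28 in DR (adjusted p = 2.2e-11), and rcvrn2 by 7.73 (adjusted p = 2.5e-07) and 9.01 (adjusted p = 1.7e-08). From no read at 32 hpf, gngt2b was at least 135.7-fold higher at 48 hpf in OF and at least 27.2-fold higher in DR, and prom1b at least 48.1-fold higher in DR. By contrast, arr3a rose by 7.81 with SE 1.42 in OF (adjusted p = 7.5e-05) and was not called in DR (log2 difference 3.06 with SE 1.42, adjusted p = 0.108), where the paired fit did call it (log2 difference 3.17 with SE 1.14, adjusted p = 0.0357), and saga rose by 6.50 in OF (adjusted p = 3.2e-06) and was not called in DR (log2 difference 1.37 with SE 0.93, adjusted p = 0.288). The 11 genes not called in OF were grk1a of the rod set, pde6c, gc3, cngb3.1 and slc24a2 of the cone set, and gucy2f, guca1a, rgs9a, pdcb, prph2a and rp1l1b of the shared set. In the paired fit 38 genes rose in OF, with grk1a and prph2a added, and 17 in DR, with arr3a and rom1b added. The backgrounds in this fit were 26.9% of all genes called higher in OF and 21.6% in DR. Genes of other tissues were also called higher over this step. Of 9 muscle genes tested, 4 were called in OF (median 3.58) and 1 in DR (median 1.61), and of 11 genes of the pigment epithelium 7 in OF (median 0.87) and 3 in DR (median -0.03). Of 14 erythrocyte genes 1 was called higher in OF and 8 in DR (median 3.96), and of 15 endothelial genes 0 in OF and 7 in DR (median 1.51). The muscle sum ranged from 60.00 to 121 in OF and 54.3 to 150 in DR at 32 hpf and from 288 to 3412 and 117 to 1119 at 48 hpf. At 32 hpf 2 of the 11 muscle genes in OF and 3 in DR had no read. The part of these tissues in the rise was not tested.

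The median rise from 32 to 48 hpf was 3.84 for rod, 3.55 for cone and 3.99 for shared genes in OF (3.50 for shared genes with zero-read groups at their bound), against 0.38 for all genes. In DR it was 1.46, 0.95 and 1.71 (1.38 with bounds), against 0.35. These values depend on the scaling: after quantile scaling the median of all genes was -0.16 in OF and -0.17 in DR, the share of higher among called genes went from 72.7% to 47.2% in OF and from 77.5% to 54.2% in DR, and 27 and 14 of the cascade genes rose, against 2897 and 2228 of all 17360 genes. None of the 47 genes reversed direction under any scaling, but the small rise of gnb1b (log2 difference 0.39 with SE 0.12, adjusted p = 0.00984 in OF) was no longer called with TMM scaling (0.26, adjusted p = 0.109 in OF; 0.25, adjusted p = 0.144 in DR). With quantile scaling limma no longer called sagb (1.42, adjusted p = 0.371) and aipl1 (1.16, adjusted p = 0.213) in DR. In OF it no longer called pde6b, cnga1, guca1b, grk7a, guca1c, gnat2, guca1g, tulp1b and pde6h (adjusted p from 0.0889 to 0.572). From 48 to 56 hpf none of the 47 genes was called in either region, by limma, edgeR or DESeq2. The backgrounds were 0.00576% and 0.00576% of all genes called higher. At an unadjusted p under 0.05 limma had 19 of 47 in OF and 8 in DR, against 3.83% and 3.21% of all genes at that p in either direction. The medians from 48 to 56 hpf were 2.04 for rod, 2.09 for cone and 1.18 for shared genes in OF and 1.62, 0.82 and 0.87 in DR, against 0.05 and 0.06 for all genes.

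Counts of genes higher in OF than in DR depended on the fit, and no gene was called lower in OF in any of them. Called or not, 30 of 47 genes had a log2 difference above 0 without a block at 32 hpf, and 46 at 48 and 56 hpf. The median over all genes was also above 0 at 32, 48 and 56 hpf (0.06, 0.10 and 0.08). The share of all genes above 0 is not given, so these numbers are descriptions. The lowest differences at these times were -2.14, -0.26 and -0.28. Genes with a lower mean in OF than in DR at 32 hpf included gnat2 (0.877 and 5.75) and pdca (4.53 and 8.26). Others were prph2b (2.86 and 17.0) and pde6c (2.12 and 22.2, with 89.95 in DR replicate 1). Without a block, limma called 0 of 47 genes at 32 hpf (background 0.974% of all genes called higher), with 6 at an unadjusted p under 0.05, against 8.74% of all genes at that p in either direction. At 48 hpf it called 1 of 47, saga (background 0.00576%), with 24 unadjusted against 3.96% of all genes. At 56 hpf it called 9 of 47 (background 0.202%), with 31 unadjusted against 5.81%. The 9 were the rod gene gngt1, the cone genes arr3b, gnb3b, guca1g and grk7a, and the shared genes guca1b, rcvrn3, rom1a and rom1b. All 9 reached the filter only with the help of OF libraries at 48 or 56 hpf. Their calls, and their number beside the background, are therefore descriptions. With 15 pairs it called 4 genes at 32 hpf, gngt2a, ckmt2a, tulp1a and rcvrn2 (background 2.41%). With 15 pairs 8 genes were called at 48 hpf, saga, sagb and gngt1 of the rod set, arr3a, arr3b and gnb3b of the cone set, and rom1a and rom1b (background 0.173%). At 56 hpf the number with 15 pairs was 26, of which 5 were rod, 10 cone and 11 shared genes (background 0.893%). In the paired fit the numbers were 4 at 32 hpf (background 2.81%), 23 at 48 hpf (5 rod, 9 cone and 9 shared; background 3.04%) and 32 at 56 hpf (7 rod, 11 cone and 14 shared; background 2.41%). Over all genes, calls higher and lower in OF at 56 hpf numbered 155 and 235 with 15 pairs and 418 and 402 in the paired fit. With each remaining pair of the same time left out in turn, 14 of the 23 at 48 hpf stayed called in every case. They were saga, sagb, gnat1, gngt1 and cnga1 of the rod set, arr3a, arr3b, gnb3b and pde6h of the cone set, and pdca, rcvrn3, rom1a, rom1b and ckmt2a. At 56 hpf 20 of the 32 stayed called. The smallest numbers called were 15 at 48 hpf, without replicate 2, and 21 at 56 hpf, without replicate 3. Without a block, leaving out the library labelled OF replicate 5 at 48 hpf gave 13 called genes at 48 hpf and 14 at 56 hpf. Backgrounds are not given for fits that left out a single library or a further pair.

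**Figure D4:**
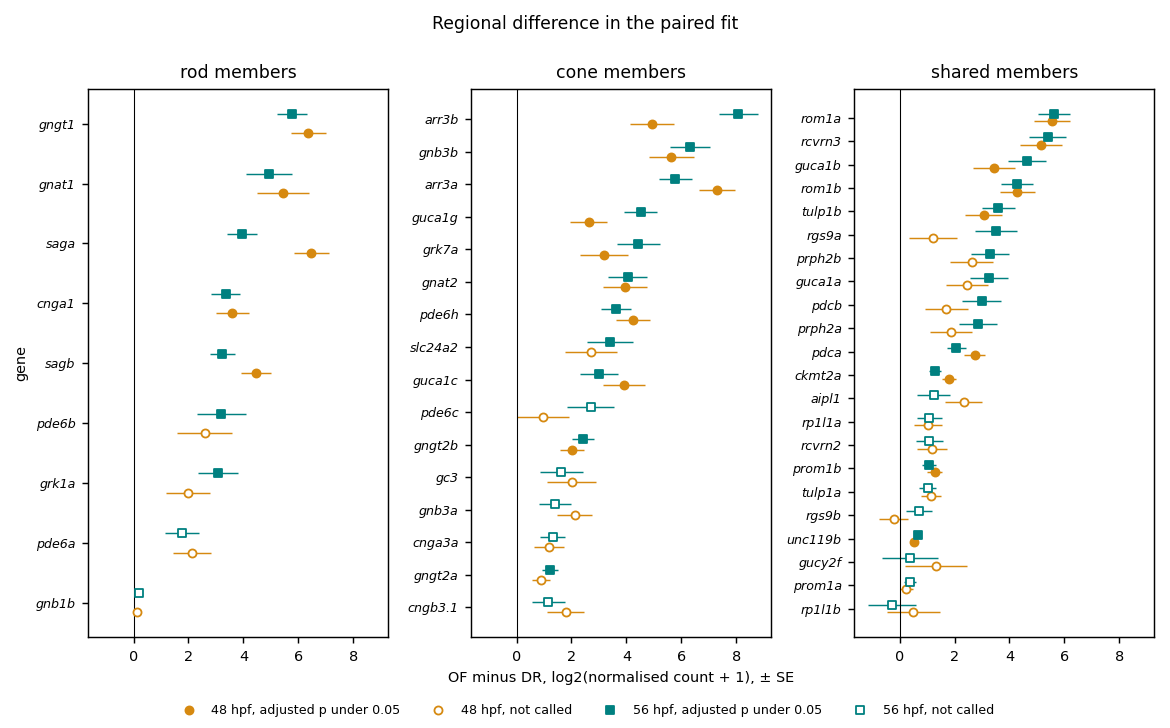
Log2 difference of OF over DR in the paired fit with its standard error (horizontal axis) for each tested gene, by class, at 48 and 56 hpf. At 48 hpf rod and cone genes spread from gnb1b at 0.13 to arr3a at 7.30, and at 56 hpf arr3b had a difference of 8.07.

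Direction was also read pair by pair, without a model. Counting replicate 5 as labelled, at 48 hpf OF was above DR in 5 of 5 pairs for 14 of 47 genes (3 rod, 3 cone and 8 shared), against 7.98% of all tested genes. In pairs 1 to 4 alone it was above DR for 35 (7, 12 and 16), against 19.3%. At 56 hpf it was above DR in 5 of 5 pairs for 41 of 47 (8, 14 and 19), against 13.0%, the exceptions being pde6a, cngb3.1, gucy2f, gc3, rgs9b and rp1l1b. The 5 OF libraries lay above all 5 DR libraries for 1 gene at 48 hpf (rom1a), against 0.668% of all genes. At 56 hpf they did so for 23 genes (6 rod, 7 cone and 10 shared), against 2.22%. A change of the regional difference itself between 32 and 48 hpf was tested as an interaction. It was called for 9 of 47 genes in the paired fit, gngt1, arr3a, saga, pdca, rom1a, gnat2, gnb3b, rcvrn3 and arr3b (background 0.276% of all genes), and for none without a block (background 0.00576%) or with 15 pairs (background 0.00576%). At an unadjusted p under 0.05 there were 13 without a block, against 3.80% of all genes, and 21 with 15 pairs, against 9.50%. Most of the 9 genes called in the paired fit were near 0 in both regions at 32 hpf. For those genes the change largely restates the difference at 48 hpf. For gnat2 and pdca the mean at 32 hpf was lower in OF (0.877 and 4.53) than in DR (5.75 and 8.26). Their change therefore started from a difference in the other direction, at low counts. So did that of gnb3b (0.371 in OF and 0.529 in DR) and, without replicate 1 at 32 hpf, that of arr3b. From 48 to 56 hpf no fit called a change of the difference (background without a block 0%), and 3 of 47 genes were at an unadjusted p under 0.05 without a block, against 0.518% of all genes.

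In some groups 1 library was the highest or the lowest for most of the genes. At 48 hpf OF replicate 3 held the highest value of its group for 36 of 47 genes and the library labelled OF replicate 5 the lowest for 35, and DR replicate 3 was the highest DR library for 23. At 32 hpf no library was the highest for more than 15 of the 47. At 56 hpf OF replicate 1 was the highest for 37 and DR replicate 1 for 28. The opsins, which are not among the 54 genes, followed the same order in OF: their sum was 6615, 9549, 27140.3, 857 and 26.3 in OF and 66.9, 107, 358, 18.6 and 64.4 in DR at 48 hpf. By 56 hpf it was 56798, 39722, 15564, 14299.8 and 8759.6 in OF and 1365, 3581, 45.9, 129.7 and 60.8 in DR. Markers of other tissues moved with some of these libraries at 56 hpf. The sum of 11 muscle genes, all of them found in the table, was 26285, 17965, 326, 235 and 185 in OF and 4968, 9305, 198, 143 and 159 in DR, so that replicates 1 and 2 of both regions were high in muscle genes and in most cascade genes. At 48 hpf the muscle sum was 288, 3412, 318, 2385 and 1173 in OF and 166, 448, 282, 117 and 1119 in DR and was not highest in the libraries with the most cascade RNA. The sum of 16 lens genes was 459, 3123, 181, 128 and 105 in OF and 3901, 114, 43.2, 105 and 60.04 in DR at 56 hpf, and no lens or muscle gene was without a read in either group. At 32 hpf, where 4 of the cascade genes were called with a block, genes of blood and vessels were also higher in OF. The sum of 14 erythrocyte genes ranged from 4212 to 77446 in OF and from 159 to 31541 in DR, and 10 of the 14 were called higher in the paired fit (median log2 difference 4.15), where 2.81% of all genes were (median 0.02). The sum of 15 endothelial genes ranged from 1156 to 1987 in OF and from 506 to 1765 in DR, and 3 of the 15 were called higher (median 1.76). No gene of either list was without a read in either region at 32 hpf. The part of muscle, lens, blood or vessel tissue in the results was not tested.

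Other photoreceptor genes, from a list of 69 genes, mostly synaptic, ciliary or of the cascade but including the transcription factor gene six7, of which 45 were in the table and 37 tested, rose with time in both regions. From 32 to 48 hpf 33 of 37 rose and 1 fell in OF (median 4.06), and 22 rose and 1 fell in DR (median 2.30), against 25.6% and 22.1% of all genes called higher (medians 0.38 and 0.35). The potassium channel gene kcnv2b rose by 6.22 with SE 0.61 in OF (adjusted p = 6.4e-09) and by 5.47 in DR, and the cyclase regulator gene rd3 by 5.75 in OF and by 6.58 with SE 0.58 in DR (adjusted p = 8.3e-10). The G protein beta gene gnb5b, whose product partners RGS9, rose by 7.42 and 6.54, and a further recoverin gene, rcvrna, by 5.43 and 5.46. Between the regions 0 of 37 were called at 32 and 48 hpf without a block and 1 at 56 hpf, the synaptotagmin gene syt5a (log2 difference 4.43 with SE 0.74, adjusted p = 0.00271). In the paired fit 3 were called at 32 hpf (six7, kcnv2a and rpgrip1), 10 at 48 hpf, led by syt5a at 4.61, cacna1fa, cplx4c and tmem237b, and 10 at 56 hpf, led by syt5a at 4.43, cplx4c, cngb3.2 and rgs9bp, against 2.81%, 3.04% and 2.41% of all genes. The difference between these shares and those of the cascade genes was not tested.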

How the data were processed

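RNA of 2 regions was sequenced at 3 times in 5 libraries each, 30 in all. Per the labels' protocols, total RNA was isolated from dissected retinal regions with a kit for fixed, embedded tissue and amplified with a low-input kit. The deposited table holds signal values, normalised read counts that the authors obtained by scaling each library's reads with its own size factor. Per the submitters' processing notes, which state no roles, the genome build was GRCz10 and the tools were HTSeq, DESeq2, Picard, STAR 2.4.0 and Trim Galore. The strand setting was not given in the sources used here. Whole reads could be recovered (100.0% of values whole within 0.01 reads). In DR replicate 3 at 48 hpf 1 read was worth 1.006 normalised counts, so the check there rests on its larger values.

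Genes with at least 10 normalised counts in at least 5 libraries were kept (17360 of 27731). The test was limma-trend (limma 3.58.1, R 4.3.3), two-sided, on log2(normalised count + 1), with 6 group means fitted to 30 libraries, Benjamini-Hochberg adjustment over all kept genes and calls at an adjusted p under 0.05. Fold changes on this scale understate those of low genes. Deviations from the group means correlated within all 15 pairs of OF and DR libraries of one number and time (r from 0.23 to 0.52, median 0.38), and 30 of 30 libraries correlated best with their partner, so the numbers pair the samples and fits with the pair as a block are given. The scripts were tested on simulated data. Alternatives changed the pseudocount, filter, scaling, block and libraries, or used edgeR 4.0.16 and DESeq2 1.42.0 on the recovered reads. Values in every library are given for the gene with the largest mean in each step and class and for genes called between regions without a block. Bounds set a group without reads to 3 reads per library and cover counting error only. The genes and lists were chosen with earlier results of these data known. Levels were not compared between genes, since no lengths were used.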

Additional observations from a re-analysis of the deposited data

Results flagged for a closer look

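In groups of 5 libraries, a value was marked where its gap to the nearest other value took most of the range of the group on the log2(normalised count + 1) scale (Dixon's test at the 95% level), which chance does in about 1 of 20 groups. In OF at 56 hpf, guca1g stood at 35.47 normalised counts in replicate 1, against 18.99 to 19.93 in the other 4 libraries, a gap of 0.92 of the range of the log2 values. In DR at 48 hpf, arr3b stood at 22.13 in replicate 3, against 1.1 to 2.66 in the others, a gap of 0.77 of the range of the log2 values. OF replicate 1 at 56 hpf held the highest value of its group for 37 of the 47 tested genes and DR replicate 3 at 48 hpf for 23.

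The difference of OF over DR changed between 32 and 48 hpf for 9 genes in the paired fit of limma (13 pairs), by a test of the change itself. On the log2 scale the change was 6.58 for the cone arrestin gene arr3a (adjusted p = 0.00388), 6.36 for the rod transducin gene gngt1 (adjusted p = 0.00312), 6.06 for the rod arrestin gene saga (adjusted p = 0.0043) and 3.54 for the phosducin gene pdca (adjusted p = 0.00623). It was 5.55 for the disc rim gene rom1a (adjusted p = 0.0113), 6.19 for the cone transducin gene gnat2 (adjusted p = 0.0204) and 5.76 for the cone transducin gene gnb3b (adjusted p = 0.038). For the recoverin gene rcvrn3 it was 5.15 (adjusted p = 0.0415) and for the cone arrestin gene arr3b 5.24 (adjusted p = 0.0496). For gnat2 and pdca the OF mean at 32 hpf was below the DR mean, so their change includes a turn of direction. The same held nearer to 0 for gnb3b (0.371 in OF and 0.529 in DR). Without replicate 1 it held for arr3b too, with a DR mean of 129.7% of the OF mean. None of the 9 was called without a block or with all 15 pairs, and the library labelled OF replicate 5 at 48 hpf, which this fit left out, held the lowest OF value of each of the 9.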

How the results depend on the processing

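The rise from 32 to 48 hpf and the absence of calls from 48 to 56 hpf varied least: numbers of called genes stayed within 1.5 times of 36 (OF), 15 (DR) and 0 in each setting, except that DESeq2 called 23 in DR from 32 to 48 hpf. Of all 17360 genes DESeq2 called 3891 higher there, against 3830 in the unblocked limma fit. The regional numbers varied. At 32 hpf, 0 genes were called without a block, 4 with a block on 15, 13 or 12 pairs, 1 with the 13 pairs unblocked and 2 by DESeq2, and leaving out single libraries gave 0 to 1. Calls higher in OF over all genes at 32 hpf were 169 without a block and 418, 487 and 431 with these blocks. They were 142 with the 13 pairs unblocked and 327 by DESeq2. At 48 hpf the 1 call became 0 with a pseudocount of 0.5, without a filter, with a mean filter of 50 and with only the groups compared, 2 with edgeR, 9 with DESeq2 and 12 with the 13 pairs unblocked. With the replicate pair as a block it became 8 (15 pairs), 23 (13 pairs) or 22 (12 pairs), and single libraries left out gave 0 to 13, the 13 without the library labelled OF replicate 5 at 48 hpf. Calls higher in OF over all genes at 48 hpf were 3 with edgeR, 21 with DESeq2 and 75 with the 13 pairs unblocked. With the block they were 30 (15 pairs), 527 (13 pairs) and 436 (12 pairs). At 56 hpf the 9 calls became 16 with a pseudocount of 4 or quantile scaling, 4 with the mean filter, 14 with only the groups compared or with the 13 pairs unblocked, 2 with edgeR and 4 with DESeq2. With the block they became 26 (15 pairs), 32 (13 pairs) or 25 (12 pairs), and single libraries left out gave 7 to 14. Calls higher in OF over all genes at 56 hpf were 35 as reported, 53 with a pseudocount of 4 and 62 with quantile scaling. They were 19 of 11007 with the mean filter, 66 with only the groups compared and 70 with the 13 pairs unblocked. There were 5 with edgeR, 33 with DESeq2, and 155 (15 pairs), 418 (13 pairs) and 204 (12 pairs) with the block. In the paired fit, leaving out each pair in turn gave 15 to 20 calls at 48 hpf and 21 to 29 at 56 hpf. Numbers over all genes are not given for settings that left out a single library or pair. The change of the difference from 32 to 48 hpf was called for 9 genes with 13 pairs, 7 with 12 pairs, 1 with DESeq2 and 0 otherwise. Over all genes, calls of a change toward OF numbered 48 with 13 pairs, 27 with 12 pairs and 14 with DESeq2. At 56 hpf edgeR no longer called gnb3b, rcvrn3, guca1b, rom1a, grk7a, rom1b and guca1g (adjusted p from 0.0571 to 0.485), and DESeq2 no longer called gnb3b, rcvrn3, guca1b, rom1a and guca1g (adjusted p from 0.0533 to 0.563). No called difference of a named gene reversed in these settings; the cause of the moves was not tested. Quantile scaling also moved the share of higher among all called genes from 85.4% to 72.7% at 32 hpf and from 79.5% to 72.1% at 56 hpf. The block moved it further, to 51.0% (13 pairs) and 39.7% (15 pairs) at 56 hpf. A gene under 3 reads in a library cannot be told from absent at this depth.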
